A study of Mus musculus with 63 samples.

Results

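The p53 negative feedback regulators described here are 4 genes, Mdm2, Mdm4, Ccng1 and Ppm1d, of 19938 genes measured by expression arrays in mouse B-cell lymphomas. They were taken by name, and each was read from its single probe set with 1 gene symbol. The lymphomas came from lymph nodes of C57BL/6 mice with the Emu-myc transgene, in which the immunoglobulin heavy-chain enhancer drives Myc in B-lineage cells. Of 63 arrays, 31 were labelled CTX 4h, which is 4 h after cyclophosphamide, a DNA-alkylating drug given into the peritoneum, and 32 were labelled native. A single dose of 300 mg/kg stands in the labels of 29 CTX 4h arrays. The design text of the series mentions therapy-naive lymphomas alone, so the treated status rests on the array labels. The treatment text speaks of transplanted recipient mice, and whether native lymphomas grew in transgenic mice or in recipients is not settled by the labels. Nodes were used without purifying the lymphoma cells, and each array had its own lymphoma number, including 1 titled as a repeat.

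Labelling began from 100 ng of RNA (29 CTX 4h, 15 native) or 300 ng (2 CTX 4h, 17 native). The 2 CTX 4h arrays at 300 ng are those without a dose in their labels. The 100 ng arrays fell into 3 number series by the first digit of the lymphoma number, series 1 (6 CTX 4h, 7 native), series 8 (9 and 3) and series 9 (14 and 5). These and the 300 ng arrays are called the 4 array sets below. The 300 ng arrays had lymphoma numbers starting with 8 or 9 and none with 1, so RNA input is not independent of the number series. What the number series stand for is not given in the labels. Array medians ranged from 6.53 to 7.11 (log2). B-cell markers were present, with means of 10.65 or more for each of the 7 measured (log2). Native replicates 4 (300 ng) and 25 (series 9) stood apart, with Myc at 10.64 and 11.39 against at least 12.36 on every other array. They were also the native arrays with the lowest Mdm2, so results that rest on them are given without them as well where computed. Since the labels do not tie each array to a mouse of its own, the p-values rest on the spread between arrays.

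The p53 protein, activated by DNA damage, switches on genes that arrest or kill the cell, and some of its targets feed back to switch it off. MDM2 is the ubiquitin ligase that marks p53 for degradation. MDM4, a relative that binds p53 and blocks its activity, works in complex with MDM2. Cyclin G1, the product of Ccng1, recruits the phosphatase PP2A, which activates MDM2 by removing phosphates. WIP1, the product of Ppm1d, is a PP2C phosphatase that removes phosphates from p53 and from the damage kinases ATM and CHK2. In Emu-myc lymphomas the ARF protein, encoded by Cdkn2a, holds MDM2 back, and loss of Cdkn2a or of p53 is a known step in their growth.

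Promoter sequences are shown as a description and were not related to the expression values. The lines below give the 250 bases before the gene start, 5′ to 3′, from RefSeq on GRCm38.p6. All 4 members matched the RefSeq table, Mdm4 with 2 starts. Capitals mark a match to the p53 consensus decamer, the repeated unit of p53 binding sites, searched on both strands.
Mdm2: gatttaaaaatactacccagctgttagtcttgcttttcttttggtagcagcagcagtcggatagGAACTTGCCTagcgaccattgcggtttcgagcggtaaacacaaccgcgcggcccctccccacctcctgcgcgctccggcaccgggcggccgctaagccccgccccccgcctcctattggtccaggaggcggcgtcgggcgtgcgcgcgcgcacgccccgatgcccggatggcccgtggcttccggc
Ccng1: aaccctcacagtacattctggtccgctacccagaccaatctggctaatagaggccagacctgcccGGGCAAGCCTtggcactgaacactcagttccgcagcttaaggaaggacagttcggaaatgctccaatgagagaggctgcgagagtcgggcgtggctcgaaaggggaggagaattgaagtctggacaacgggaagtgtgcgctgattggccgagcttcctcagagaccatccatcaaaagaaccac
Ppm1d: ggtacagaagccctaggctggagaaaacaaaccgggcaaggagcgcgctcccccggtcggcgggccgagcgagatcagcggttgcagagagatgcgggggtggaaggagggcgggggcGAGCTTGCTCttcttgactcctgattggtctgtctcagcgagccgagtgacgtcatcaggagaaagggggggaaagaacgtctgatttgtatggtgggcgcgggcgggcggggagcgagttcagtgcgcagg
The Mdm2 stretch is chr10:117710759-117711008 on the minus strand, with the match GAACTTGCCT 186 to 177 bases before the start. The Ccng1 stretch is chr11:40755287-40755536, also on the minus strand, with GGGCAAGCCT 185 to 176 bases before the start. The Ppm1d stretch, chr11:85311004-85311253 on the plus strand, holds GAGCTTGCTC 132 to 123 bases before the start. Mdm2, Ccng1 and Ppm1d thus held 1 match each, and neither Mdm4 window, both on chromosome 1, held any. In windows of 250 bases before to 50 after the start, a match was present in 8.36% of 32851 promoters. The MYC-binding E-box CACGTG, searched on both strands, was in none of the 5 windows of these genes and in 7.15% of all. A match is a description of letters, and the p53-responsive internal promoter that Mdm2 is known to have within the gene was not examined here.

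Treated and native lymphomas were compared to see whether the regulators differed in the hours after the drug. Mdm2, Mdm4 and Ccng1 had higher fitted levels in CTX 4h and Ppm1d a lower one, but none of the 4 passed the threshold over all genes (limma with RNA input in the model, Benjamini-Hochberg adjusted p under 0.05). Mdm2 and Mdm4 had unadjusted p-values of 0.0134 and 0.0350. Of all genes, 1.41% were called higher and 1.26% lower, so a count of 0 of 4 lies near the background. In 100 ng arrays alone the shares were 0.15% and 0.1%, and with the array set in the model in place of RNA input they were 0.722% and 0.331%. No member was called in either of these models.

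Mdm2, the ligase gene, ranged from 8.92 to 10.23 with a median of 9.54 (log2) in CTX 4h arrays. In native arrays it ranged from 8.03 to 9.87 with a median of 9.27. The groups overlapped, 24 of 31 CTX 4h arrays lay above the native median, and 4 lay above every native array. Means were 9.53 ± 0.33 (SD, n = 31) and 9.25 ± 0.37 (SD, n = 32). The log2 fold change was 0.26 ± 0.10 (SE, limma adjusted p = 0.16), with a 95% interval from 0.06 to 0.46. After quantile normalization of the arrays it was 0.37 (limma adjusted p = 0.0111), past the threshold, so the call for Mdm2 depends on the scaling. With the array set in the model in place of RNA input it was 0.34 ± 0.10 (SE, limma adjusted p = 0.0668). Without native replicates 4 and 25 it was 0.18 (limma adjusted p = 0.152).

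Within the array sets, the Mdm2 difference ran from none to large. In series 1, CTX 4h arrays ranged from 9.32 to 9.84 (median 9.62) and native arrays from 9.36 to 9.87 (median 9.67), a difference of -0.04. In series 8, CTX 4h arrays ranged from 9.21 to 9.98 (median 9.46) and the 3 native arrays gave 9.03, 9.27 and 9.47, a difference of 0.25. In series 9, CTX 4h arrays ranged from 8.92 to 10.23 (median 9.45) and the 5 native arrays gave 8.03, 8.87, 9.26, 9.27 and 9.37. There 8 of 14 CTX 4h arrays lay above every native array, and the difference was 0.48 (exact permutation p = 0.0458, adjusted over the 16 tests of 4 genes in 4 sets 0.245). It was 0.25 without native replicate 25. At 300 ng, the 2 CTX 4h arrays, whose labels give no dose, gave 9.94 and 10.07. The 17 native arrays gave 8.43 to 9.51 (median 9.19). These groups did not overlap, with a difference of 0.85 (exact permutation p = 0.00585, the smallest that 2 against 17 allow, adjusted 0.0468). With either treated array left out the difference was 0.78 or 0.91, and 1 array against 17 cannot give an exact p under 0.0556.

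Ccng1, the cyclin G1 gene, had its larger differences in the same sets as Mdm2. CTX 4h arrays ranged from 10.27 to 12.57 with a median of 11.55 (log2), and native arrays from 9.46 to 12.28 with a median of 11.22. Of 31 CTX 4h arrays, 22 lay above the native median and 4 above every native array. Means were 11.53 ± 0.61 (SD, n = 31) and 11.26 ± 0.52 (SD, n = 32). The log2 fold change was 0.30 ± 0.16 (SE, limma adjusted p = 0.325), with a 95% interval from -0.02 to 0.63. With the array set in the model in place of RNA input it was 0.46 ± 0.15 (SE, limma adjusted p = 0.14). Without native replicates 4 and 25 it was 0.20 (limma adjusted p = 0.373). The set differences were 0.13 in series 1, 0.15 in series 8, 0.70 in series 9 and 0.94 at 300 ng. In series 9 the 14 CTX 4h arrays ranged from 10.27 to 12.37 and the native arrays gave 9.46, 10.35, 10.68, 11.003 and 11.69 (exact permutation p = 0.0819, adjusted 0.328). Without native replicate 25 the series 9 difference was 0.40 (exact permutation p = 0.306, adjusted 0.643), and leaving out each native array of that set in turn gave 0.40 to 0.96. In series 8 the same gave 0.000294 to 0.39, the lowest without native replicate 20. At 300 ng the 2 CTX 4h arrays gave 12.07 and 12.27, above all 17 native arrays, which lay between 10.80 and 12.05 (median 11.18, exact permutation p = 0.00585, adjusted 0.0468). With either treated array left out the difference was 0.84 or 1.04, where again no exact p under 0.0556 is possible.

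Mdm4, the p53-binding relative of Mdm2, had nearly equal unadjusted means of 9.66 ± 0.33 (SD, n = 31) and 9.65 ± 0.36 (SD, n = 32) in the treated and native groups (log2). CTX 4h arrays ranged from 8.96 to 10.24 (median 9.66) and native arrays from 8.48 to 10.13 (median 9.74), so the groups overlapped almost fully. With RNA input held, the log2 fold change was 0.19 ± 0.09 (SE, limma adjusted p = 0.245), with a 95% interval from 0.01 to 0.37. Its value without the RNA input term was 0.01, and with the array set in place of that term 0.13 (limma adjusted p = 0.702). Without native replicates 4 and 25 it was 0.14 (limma adjusted p = 0.259). Within sets, the differences were 0.03, 0.21 and 0.23 in series 1, 8 and 9 and 0.00 at 300 ng, and the smallest exact permutation p was 0.3. In series 9 the native arrays gave 8.48, 9.51, 9.75, 9.75 and 10.01 against 8.96 to 10.24 in CTX 4h, and without native replicate 25 the difference was -0.03.

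Ppm1d, the phosphatase gene, had means of 10.18 ± 0.56 (SD, n = 31) and 10.17 ± 0.60 (SD, n = 32) in the treated and native groups (log2). CTX 4h arrays ranged from 9.01 to 11.53 (median 10.01) and native arrays from 8.93 to 11.33 (median 9.96). The log2 fold change was -0.14 ± 0.16 (SE, limma adjusted p = 0.689), with a 95% interval from -0.47 to 0.19. With the array set in the model its sign turned, at 0.13 (limma adjusted p = 0.786), and without native replicates 4 and 25 it was -0.23 (limma adjusted p = 0.297). Differences within series 1, 8 and 9 were 0.08, 0.07 and 0.33, and -0.13 at 300 ng, with a smallest exact permutation p of 0.112 in series 9. There the difference was 0.14 without native replicate 25, and leaving out each native array in turn gave 0.14 to 0.48.

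**Figure D1:**
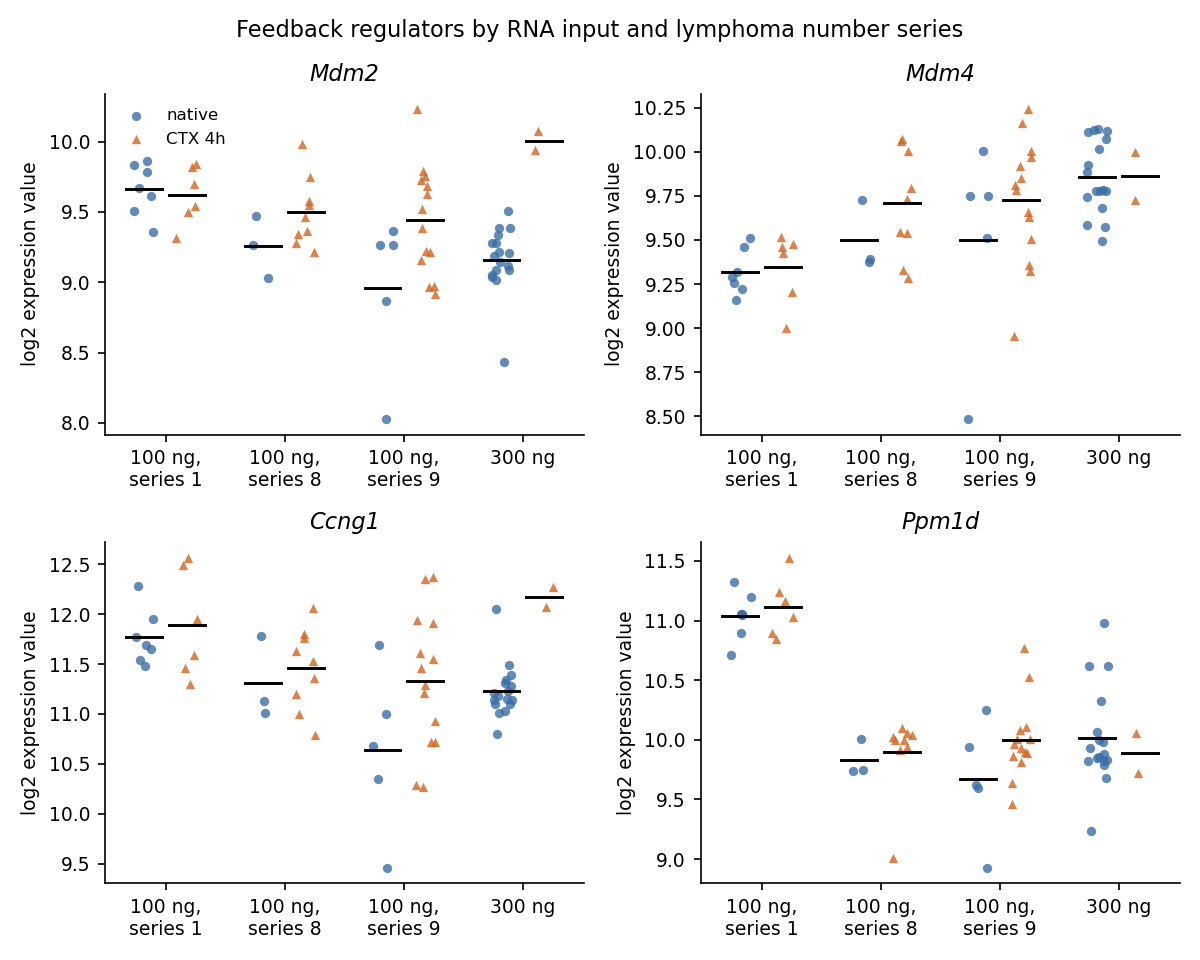
Log2 expression of Mdm2, Mdm4, Ccng1 and Ppm1d on each of 63 arrays, by array set; circles are native arrays, triangles CTX 4h arrays and black bars group means. At 300 ng the 2 CTX 4h arrays lie above all 17 native arrays for Mdm2 and Ccng1, and series 1 lies highest for Ppm1d.

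The effect of treatment was not shown to differ between array sets for any member. The Mdm2 difference was larger at 300 than at 100 ng by 0.69 ± 0.27 (SE, limma interaction, unadjusted p = 0.0127, adjusted p = 0.727), and that of Ccng1 by 0.75 ± 0.45 (SE, adjusted p = 0.999). Mdm4 and Ppm1d gave -0.22 and 0.01 (limma adjusted p = 0.999 for both). Of all genes, 4, or 0.0201%, were called in that test. Between number series 0 genes (0%) were called by limma, 448 of 19938 had an unadjusted p under 0.05, and the members' unadjusted p-values ran from 0.118 to 0.702.

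Macrophage markers moved with Mdm2 and Ccng1, and in unpurified nodes fewer cells of a type and less RNA per cell cannot be told apart. The mean of 12 macrophage markers ranged from 7.96 to 10.16 in CTX 4h arrays and from 8.27 to 9.20 in native arrays (log2), and 2 of the 12, Cd14 and Fcgr1, were called higher, against 1.41% of all genes. Vsig4 had the lowest mean, 4.80 in CTX 4h and 4.67 in native arrays. At 300 ng, where Mdm2 and Ccng1 did not overlap, the marker mean also did not, with 9.75 and 10.16 in the 2 CTX 4h arrays against 8.38 to 9.20 in 17 native arrays. With the marker mean in the model, the log2 fold change of Mdm2 was 0.07 (limma adjusted p = 0.718) and that of Ccng1 was -0.05 (limma adjusted p = 0.897). Mdm4 then had 0.10 and Ppm1d -0.16. Among CTX 4h lymphomas the marker mean correlated with Ccng1 (r = 0.73, rho = 0.72), Mdm2 (r = 0.71, rho = 0.67) and Mdm4 (r = 0.45, rho = 0.43), with permutation p adjusted over 16 relations of 4e-05, 4e-05 and 0.0257 for r and 0.00016, 0.00016 and 0.0379 for rho. Without the 2 arrays farthest from the median of the marker mean these were 0.67, 0.66 and 0.30, and with values centred on their set 0.74, 0.64 and 0.53. In native lymphomas r was 0.32, 0.16 and 0.32, and none passed. The part of these cells in the differences was not tested.

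Some markers of other tissues and many small nucleolar RNA genes, short non-coding RNAs of the nucleolus, also differed between the groups. The counts below stand against 1.41% of all genes called higher and 1.26% lower. Of 11 stromal and endothelial markers 4 were called higher, Col1a1, Col1a2, Col3a1 and Lum, by 0.60, 0.46, 0.59 and 0.85 (log2). Their mean level ranged from 7.93 to 9.46 in CTX 4h and from 8.04 to 9.01 in native arrays. The adipocyte genes Fabp4 and Lpl rose by 0.88 and 1.17, 2 of 6 measured, with mean levels from 6.68 to 10.54 and from 6.61 to 9.39. Among salivary gland genes, Amy1 and Bpifa2 were higher by 2.41 and 2.87 with RNA input in the model, 2 of 6 measured. Prol1 had a lower mean in CTX 4h, 4.50 against 4.77 in native arrays. The mean of the 6 was 7.54 ± 1.89 (SD) in CTX 4h and 7.07 ± 2.17 (SD) in native arrays. It ranged from 4.88 to 11.59 and from 4.66 to 11.48. Among 10 T-cell and NK-cell markers Ncr1 fell by 0.42, with mean levels from 6.14 to 9.81 and from 6.39 to 9.79, and 0 of 7 B-cell markers were called by limma (1 with an unadjusted p under 0.05). Of 54 small nucleolar RNA genes 31 were called higher with RNA input in the model, against 1.41% of all genes. No count with the array set in the model is given here. Their mean ranged from 8.12 to 10.97 in CTX 4h and from 8.04 to 10.38 in native arrays. In CTX 4h and native arrays it was 8.49 and 8.34 in series 1 and 10.15 and 9.67 in series 8. It was 10.18 and 9.68 in series 9 and 10.59 and 9.83 at 300 ng. With the small nucleolar RNA mean in the model, the fold changes were 0.28 for Mdm2, 0.03 for Mdm4, 0.48 for Ccng1 and 0.34 for Ppm1d (log2), with limma adjusted p of 0.332 or more. The part of these tissues and RNAs in the differences of the regulators was not tested.

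**Figure D2:**
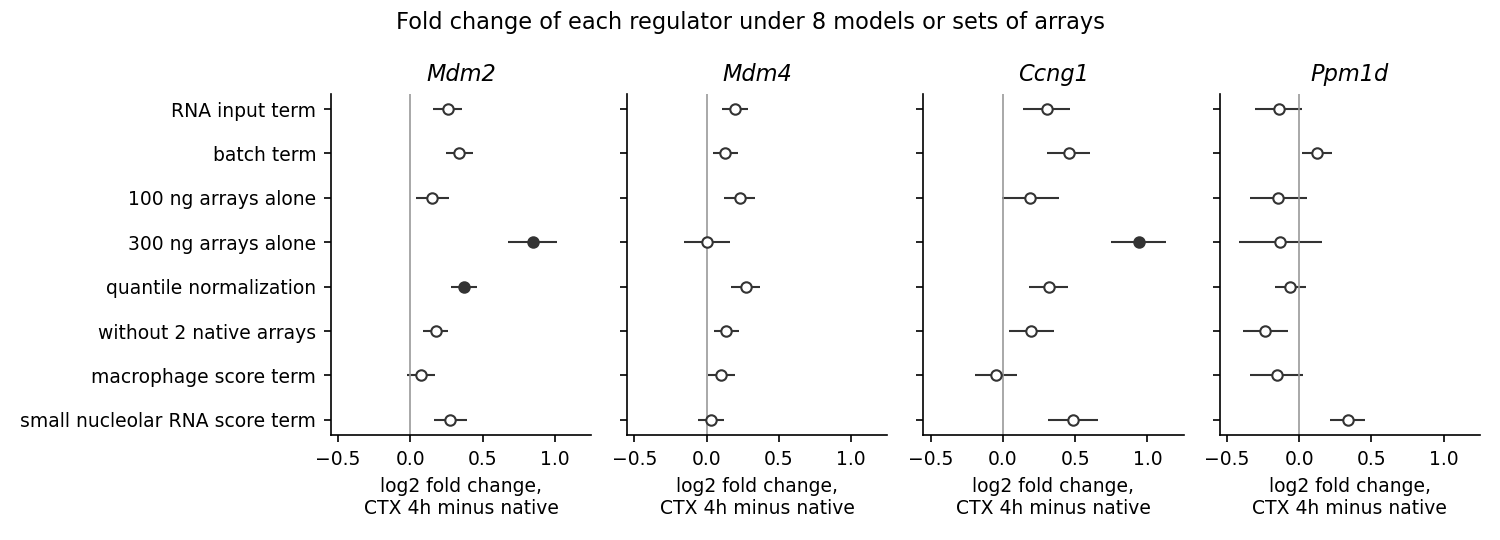
Log2 fold change, CTX 4h minus native, of each regulator under 8 models or sets of arrays; points are limma estimates, bars 1 SE, and filled points have an adjusted p under 0.05. Mdm2 is filled with 300 ng arrays alone (0.85) and after quantile normalization (0.37), and Ccng1 with 300 ng arrays alone (0.94).

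The levels of the regulators also differed between array sets within a treatment group. Ppm1d was highest in series 1, where 6 CTX 4h arrays had a mean of 11.12 ± 0.25 (SD) and 7 native arrays 11.04 ± 0.20 (SD). The set means elsewhere lay between 9.67 and 10.02 (log2). In CTX 4h lymphomas series 1 was higher than series 8 by 1.22 and than series 9 by 1.12, with no overlap (exact permutation p adjusted over 48 comparisons = 0.00192 and 0.00031). In native lymphomas it was higher than series 8, series 9 and 300 ng by 1.21, 1.37 and 1.02 (exact permutation p adjusted over 48 comparisons = 0.04, 0.00866 and 0.00021). Against the 2 CTX 4h arrays at 300 ng the difference was 1.23 (exact permutation, adjusted p = 0.097). No other pair of sets differed past the threshold for Ppm1d. Sets held 65.5% of the variance of Ppm1d, against a median of 15.9% over all genes, and 99.0% of genes had less. For Mdm2, Mdm4 and Ccng1 the shares were 15.4%, 29.4% and 17.7%.

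Series 1 stood out in native lymphomas for the other regulators too, in both directions. Mdm2 was higher there than in series 9 by 0.70 and than at 300 ng by 0.50 (exact permutation p adjusted over 48 comparisons = 0.0152 and 0.00031). Ccng1 was higher by 1.13 and 0.53 (exact permutation, adjusted p = 0.0269 and 0.00275). Mdm4 was lower than at 300 ng by a mean difference of -0.54 (exact permutation, adjusted p = 0.00021). The order of native Mdm4 means was 300 ng, 9.86 ± 0.21 (SD, n = 17), series 9, 9.50 ± 0.59 (SD, n = 5), series 8, 9.50 ± 0.20 (SD, n = 3), and series 1, 9.32 ± 0.13 (SD, n = 7), and neighbours in it did not differ past the threshold. Small nucleolar RNA genes moved with the sets as well. The mean of the 54 was 8.49 and 8.34 in CTX 4h and native arrays of series 1 against 9.67 to 10.59 in the other sets (log2). Array medians were 6.61 in both groups of series 1 and 6.76 to 6.85 elsewhere. The part of small nucleolar RNA levels in the differences between sets was not tested.

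Over all arrays of a treatment group, Mdm2 and Ccng1 varied together in both groups. Within native sets of at least 6 arrays the relation did not pass. In 31 CTX 4h lymphomas r was 0.76 and rho 0.80 (permutation p = 1e-05 for both, the smallest that 100000 permutations can give, adjusted over 12 relations 0.00012). Without the 2 arrays farthest from the Mdm2 median r was 0.72, and with values centred on their set it was also 0.72 (permutation p adjusted over 12 relations = 0.00024). With the macrophage mean held it was 0.51 (permutation p adjusted over 12 relations = 0.0109). Within sets r was 0.85 in series 9 (n = 14, permutation p = 0.00013, adjusted over 30 relations 0.0039), 0.56 in series 8 (n = 9, exact p = 0.117) and 0.21 in series 1 (n = 6, exact p = 0.681). The relation was therefore past the threshold in series 9 alone, and a difference between the sets was not tested.

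In 32 native lymphomas Mdm2 and Ccng1 had r = 0.73 and rho = 0.53 (permutation p = 4e-05 and 0.00237, adjusted 0.00024 and 0.0122). The 2 arrays farthest from the Mdm2 median are those that stood apart, and without them r was 0.60. With values centred on the set r was 0.57 (permutation p = 0.00154, adjusted over 12 relations 0.00616). No value over all native sets was both centred and without these 2 arrays. Within single sets the relation did not pass, with r = 0.51 in series 1 (n = 7, exact p = 0.25) and 0.20 at 300 ng (n = 17, permutation p = 0.374). After quantile normalization r over all native arrays was 0.36 (permutation p adjusted over 12 relations = 0.136).

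Ppm1d values formed clusters by array set, so its relations with the other regulators and other p53 targets were computed on values centred on the set. In CTX 4h lymphomas r with Mdm2, Mdm4 and Ccng1 was -0.12, 0.14 and 0.26, and none passed. In native lymphomas Ppm1d varied with Mdm2 (r = 0.62, rho = 0.51, permutation p adjusted over 12 relations = 0.00092 and 0.0122). Its r with Ccng1 was 0.54 and rho 0.27 (permutation p adjusted over 12 relations = 0.00621 and 0.278). Without native replicates 4 and 25 these were 0.31 and 0.41 (permutation p adjusted over 12 relations = 0.155 and 0.052), neither past the threshold. Without the 2 arrays farthest from the median on the x axis they were 0.36 and 0.44 (permutation, adjusted p = 0.102 and 0.0516). After quantile normalization they were 0.08 and 0.13 (permutation, adjusted p = 0.677 and 0.565).

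Mdm4 had no relation with Mdm2 or Ccng1 that kept its sign under every setting tried. In native lymphomas r with Mdm2 was 0.05 over all 32 arrays, -0.54 without native replicates 4 and 25 (permutation p adjusted over 12 relations = 0.00824) and 0.54 with values centred on the set (permutation, adjusted p = 0.0128). Within sets it was 0.01 in series 1 (n = 7) and 0.06 at 300 ng (n = 17). With Ccng1 the native values were 0.08, -0.46 and 0.40 in the same order (permutation, adjusted p = 0.697, 0.0293 and 0.0575). In CTX 4h lymphomas Mdm4 had r = 0.27 with Mdm2 and 0.19 with Ccng1 (permutation p adjusted over 12 relations = 0.303 and 0.52).

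**Figure D3:**
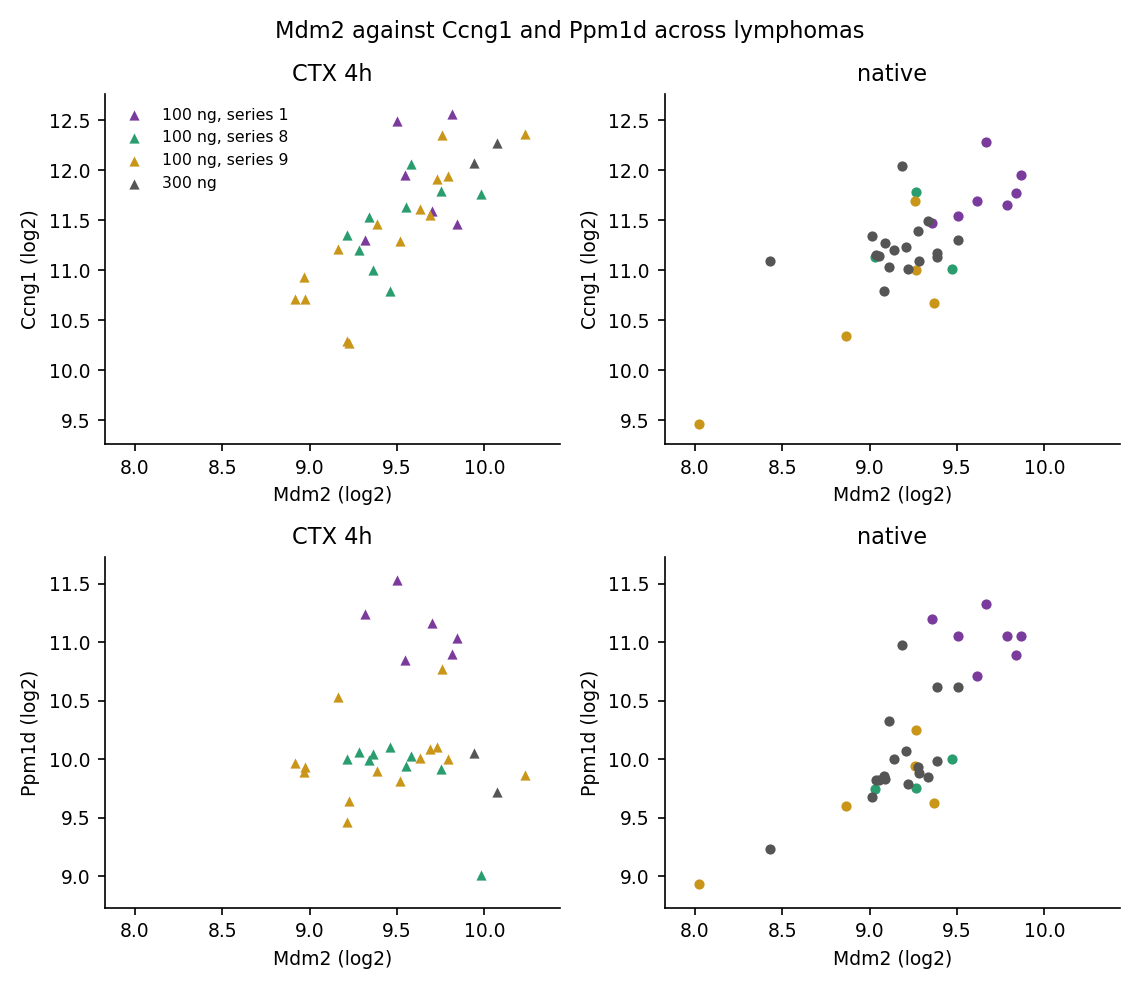
Ccng1 (top) and Ppm1d (bottom) against Mdm2 on each array (log2), CTX 4h on the left and native on the right, coloured by array set. Over all arrays of each group Ccng1 rises with Mdm2 (r = 0.76 and 0.73). Inside native sets r was 0.51 in series 1 and 0.20 at 300 ng. The native arrays with the lowest Mdm2 (8.03 and 8.43) lie apart, and series 1 forms its own cloud for Ppm1d.

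Each regulator was also correlated with other p53 target genes across lymphomas. The mean of 37 measured targets was taken per array, without the regulators. In CTX 4h lymphomas Mdm2 and Ccng1 each had r = 0.73 with it (rho = 0.69 and 0.66, permutation p adjusted over 8 relations 5.33e-05 for r and 8e-05 and 0.00044 for rho), and Mdm4 had r = 0.48 (rho = 0.46, permutation, adjusted p = 0.00933 and 0.0161). Without the 2 arrays farthest from the median of the regulator, r was 0.38 for Mdm4 and no longer past the threshold (permutation, adjusted p = 0.07), and 0.69 and 0.62 for Mdm2 and Ccng1. In series 9, the largest treated set, r was 0.93 for Ccng1, 0.80 for Mdm2 and 0.72 for Mdm4 (n = 14, permutation p adjusted over 20 relations = 0.0006, 0.0071 and 0.0239). In series 1 and 8 it ranged from -0.27 to 0.48 for these 3 genes, with no exact p under 0.197. In native lymphomas r was 0.60 for Mdm2 and 0.70 for Ccng1 (rho = 0.48 and 0.56, permutation p adjusted over 8 relations = 0.0008 and 5.33e-05 for r and 0.0115 and 0.00285 for rho). With values centred on the set they were 0.50 and 0.59 (permutation p adjusted over 8 relations = 0.00566 and 0.00064). Within single sets r lay between 0.19 and 0.39 in series 1 and at 300 ng, and none passed over 20 relations. For Mdm2 at 300 ng r was 0.39 (n = 17, permutation p = 0.121, adjusted over 20 relations 0.411) and rho 0.54 (permutation p = 0.0275). Without the 2 arrays farthest from the Mdm2 median that r was 0.77 (permutation p = 0.00113). Ppm1d, centred on the set, had 0.29 in CTX 4h and 0.22 in native lymphomas and did not pass in either. In CTX 4h lymphomas the macrophage mean gave similar r, 0.71 with Mdm2 and 0.73 with Ccng1. The r with the targets was not computed with the macrophage mean held, nor for genes outside the regulators.

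Cdkn2a, the ARF gene, had clustered values with its widest gap from 9.07 to 9.45 (log2), so its relations were computed on either side of the gap. In 11 native lymphomas above it, Mdm2 and Ccng1 were lower where Cdkn2a was higher, each with r = -0.82 (rho = -0.76 and -0.85, permutation p adjusted over 16 relations = 0.0186 and 0.0198 for r and 0.0669 and 0.0309 for rho). Without the 2 arrays farthest in Cdkn2a 9 were left, and r was -0.60 and -0.71 (permutation p = 0.0868 and 0.0352, adjusted over 16 relations 0.395 for both), so neither passed. The next widest usable gap, leaving at least 6 arrays of each group on either side, was 8.48 to 8.73. The 12 native lymphomas above it gave -0.79 and -0.82 (permutation, adjusted p = 0.021 and 0.0208). The 11 native arrays above the widest gap lie in all 4 sets, too few in each for a value within it. Those of series 1, native replicates 26, 29, 31 and 32, had Cdkn2a of 9.46 to 9.61, the rest 9.59 to 10.45. Native Mdm2 and Ccng1 were also higher in series 1 than in series 9 and at 300 ng. These r were not centred on the set, so Cdkn2a and array set cannot be told apart in them. The other 14 relations did not pass, with r from -0.67 to 0.37. The lowest was Ppm1d in the same 11 native lymphomas, also on values not centred on the set.

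Lymphomas taken after CTX were not shown to differ more from each other than native ones for any regulator. Mean absolute deviations from the median of group and set were 0.24 against 0.18 for Mdm2, 0.23 against 0.18 for Mdm4, 0.44 against 0.24 for Ccng1 and 0.19 against 0.23 for Ppm1d (log2, CTX 4h against native). The smallest permutation p was 0.189, for Ccng1 (adjusted over 4 tests 0.516).

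The genes most alike to each regulator were found by r over 63 arrays after subtracting the mean of each group in each set. All values share the same arrays and are descriptions. For Mdm2 they were Snord14e, a small nucleolar RNA gene (r = 0.74), Stk16 (0.72) and Dhx30 (0.71), with the ribosomal protein gene Rpl26 (0.70) the closest of the circuit lists and Ccng1 at 0.65, rank 34. Ccng1 was closest to Nfe2l2, the gene of the antioxidant regulator NRF2 (r = 0.79), Cd68, a macrophage marker (0.74), and Rps29 (0.74), with Apaf1, an apoptosome gene and p53 target, at 0.64. Mdm4 was closest to Resf1 (r = 0.80), Ccnt2 (0.78) and Dync1h1 (0.72), with the ubiquitin ligase gene Huwe1 at 0.61. Ppm1d had the highest values, with Elp5 (r = 0.89), Sgf29 (0.89) and Tubg1 (0.89), and Ppp2r5d, a PP2A regulatory subunit gene, at 0.81. No regulator was among the 3 closest genes of another.

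Genes that act on p53 or on the regulators were counted in 7 lists in the same fit. Of 37 other p53 target genes, 9 were called higher and 1 lower, against 1.41% and 1.26% of all genes, with a median log2 fold change of 0.24 against -0.01 over all genes. The stress regulator Sesn2 rose by 0.75 ± 0.15 (SE, limma adjusted p = 0.00285) and Phlda3, which blocks AKT, by 0.86 ± 0.19 (SE, limma adjusted p = 0.00588). Plk2 and Plk3, polo-like kinases of the stress response, rose by 0.76 and 0.55, and the repair nuclease gene Ercc5 by 0.44. The cell death genes Pmaip1 and Bbc3 rose by 0.42 and 0.41, Dcxr by 0.32 and the receptor gene Eda2r by 0.28, while Fbxw7, a ubiquitin ligase adaptor that degrades MYC, fell by 0.29 (log2). In 100 ng arrays alone, where 0.15% of all genes were called higher and 0.1% lower, 0 of the 37 were called by limma, 17 had an unadjusted p under 0.05, and 26 were above 0. With the array set in the model 7 were called higher, against 0.722% of all genes.

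Of the remaining lists few genes were called, in a fit where 1.41% of all genes were called higher and 1.26% lower. A count of 0 in a list of 8 to 12 genes lies near that background. Among 16 other p53 ubiquitin ligases and cofactors Ube4b, which works with MDM2 on p53, fell by 0.55 ± 0.15 (SE, limma adjusted p = 0.0312), and it was called neither in 100 ng arrays alone nor with the array set in the model (limma adjusted p = 0.215 and 0.16). Among 14 kinases of the pathway Chek2, the gene of the damage kinase CHK2 and a WIP1 substrate, fell by 0.55 ± 0.12 (SE, limma adjusted p = 0.00639), and it kept its call in 100 ng arrays alone at -0.58 (limma adjusted p = 0.0168) and with the array set in the model at -0.46 (limma adjusted p = 0.0363). No gene was called by limma among 10 deubiquitinases (2 with an unadjusted p under 0.05), 8 MDM2-binding inhibitors (2), 12 other PP2C phosphatases (3) and 11 cyclin G relatives and partners (3). Medians of these lists were -0.19, 0.05, -0.07 and -0.05. The smallest p in each belonged to Usp15 (-0.33, limma adjusted p = 0.156), Rps7 (0.15, 0.154), Ppm1e (-0.53, 0.089) and Ppp2r5d (-0.30, 0.158). Next were Usp28 and Usp4 (-0.19 and -0.18), Rpl5 and Rpl26 (0.12 and 0.10), Pdp1 and Ppm1a (0.27 and 0.18), and Ppp2r5e and Ccng2 (-0.43 and -0.32), none of which passed.

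**Figure D4:**
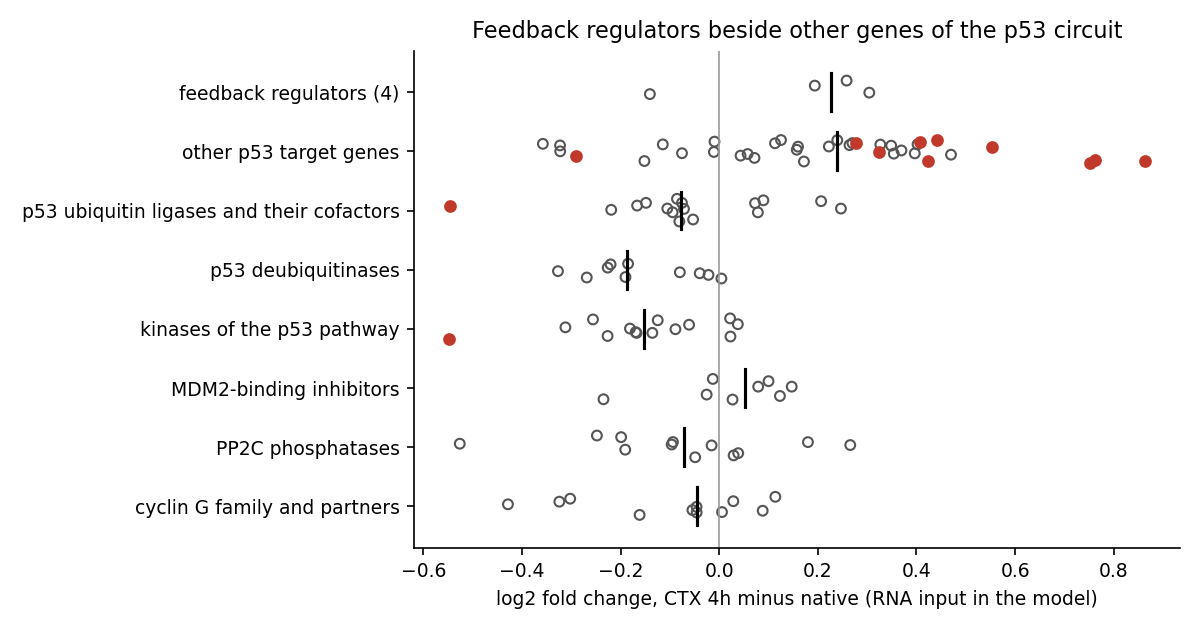
Log2 fold change, CTX 4h minus native with RNA input in the model, of the 4 feedback regulators and of each gene in 7 lists of the p53 circuit; each point is a gene, filled where the limma adjusted p is under 0.05, and black bars are medians. Of the 37 other p53 targets 9 are filled to the right and 1 to the left, Ube4b and Chek2 are filled at -0.55, and none of the 4 regulators is filled.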

How the data were processed

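The deposited log2 expression values come from 63 Affymetrix arrays. Partek 6.5 and RMA, which corrects background, normalizes and summarises probes, are the tools in the submitters' processing notes. Settings, and which arrays were normalized together, are not given in the sources used here, and scanner files were not used here. RMA compresses differences of dim genes. The number of arrays limits the precision.

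Of 35557 probe sets, 21789 had 1 gene symbol, 1621 several and 12147 none listed, and 21698 of those with 1 matched a RefSeq gene ID (GRCm38.p6). Where a gene had several such probe sets, that with the highest mean over all arrays stands for it. Probe sets with several symbols, Cdkn1a among them, were not named.

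Members, lists and rules were chosen with earlier results of these data known. The named list genes are every called gene of a list, or the 3 smallest p where none was called. Treatment and RNA input were terms of a limma 3.58.1 fit (R 4.3.3) over 19938 genes, with two-sided p adjusted by Benjamini-Hochberg at 0.05, and the script was tested on simulated data. Differences within and between array sets used exact permutation, correlations 100000 permutations (exact under 10 arrays), and spread 100000 permutations of treatment within sets. The plan had pooled relations of Ppm1d with the regulators and other p53 targets. These were replaced by values centred on the set because Ppm1d clustered by set, but its relations with Cdkn2a were not centred. A marker mean is the mean of its measured genes. No 2 arrays held identical values. Other settings were model terms, arrays left out, scaling, the probe set rule, a filter on dim genes, eBayes trend and robust, and array weights. Relations with marker means, comparisons between sets and the next widest usable Cdkn2a gap were added after seeing the data. Leaving out arrays within sets and leaving out native replicates 4 and 25 were added then as well. Figures used matplotlib 3.10.9.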

Additional observations from a re-analysis of the deposited data

Results flagged for a closer look

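Among 9 CTX 4h arrays of series 8, replicate 5 had the lowest Ppm1d value, 9.01 (log2), far below the next lowest, 9.92. The gap was 0.831 of the range of that group. The rule was applied to 16 groups of member, treatment and array set, which are not all such groups. It gave 1 such value, and chance gives about 1 in 20 groups. The same array had the highest Mdm2 (9.98) and Mdm4 (10.07) of its group. With it r between Mdm2 and Ppm1d in these arrays was -0.78 (exact p = 0.0115, adjusted over 30 relations 0.0754), and without it -0.50 (n = 8, exact p = 0.206).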

How the results depend on the processing

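No paired analysis was possible because each array has its own lymphoma number and the labels give nearly all arrays the same replicate number. Outside single arrays left out, 178 values kept direction and side of the threshold, 7 gained and 10 lost a call, 30 changed sign and 3 counts moved. Causes were not tested.

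With 300 ng arrays alone the log2 fold changes of Mdm2 and Ccng1 were 0.85 and 0.94, both called, and after quantile normalization that of Mdm2 was 0.37, called. With the macrophage mean as a term Ccng1 had -0.0453. Ppm1d had 0.0100 without RNA input, 0.13 with the array set, 0.18 in 100 ng arrays with the number series and 0.34 with the small nucleolar RNA mean. All genes called higher and lower numbered 281 and 251, against 12 and 3 in 100 ng arrays with the number series, 118 and 183 without RNA input, 37 and 74 with the macrophage mean, 24 and 2 with the small nucleolar RNA mean, 838 and 1657 without native replicates 4 and 25, and 2151 and 3677 with array weights. Without the array titled as a repeat, CTX 4h replicate 20, Mdm2, Mdm4, Ccng1 and Ppm1d had 0.28, 0.19, 0.33 and -0.13, none called. Its values lay near those of CTX 4h replicate 19 for Mdm2 (8.92 and 8.97) and Ccng1 (10.716 and 10.715), less so for Cdkn2a (10.38 and 10.75). No correlation was computed with that array alone left out. Leaving out each array in turn gave 0.18 to 0.29 for Mdm2, 0.14 to 0.23 for Mdm4, 0.20 to 0.37 for Ccng1 and -0.23 to -0.08 for Ppm1d, none called. Within sets it gave 0.78 to 0.91 for Mdm2, 0.84 to 1.04 for Ccng1, -0.13 to 0.14 for Mdm4 and -0.30 to 0.0402 for Ppm1d at 300 ng, and -0.0272 to 0.35 for Mdm4 in series 9. In 100 ng arrays alone 0 other p53 target genes and 0 ubiquitin ligases were called, and 0 of the latter with the array set.

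For correlations in CTX 4h, holding the macrophage mean gave -0.0664 (Mdm2 and Mdm4) and -0.22 (Mdm4 and Ccng1). Mdm2 and Ppm1d had 0.14 without the 2 farthest arrays, 0.0447 on a common median and 0.22 with the small nucleolar RNA mean held. Mdm4 and Ppm1d had -0.00153 without the 2 farthest and -0.21 after quantile normalization. Ccng1 and Ppm1d had 0.45, called, with the small nucleolar RNA mean held. Mdm4 with other p53 targets had 0.38 without the 2 farthest.

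In native lymphomas, without the 2 farthest arrays r was -0.54 (Mdm2 and Mdm4), 0.36 (Mdm2 and Ppm1d), -0.38 (Mdm4 and Ccng1), -0.21 (Mdm4 and Ppm1d), 0.44 (Ccng1 and Ppm1d) and -0.0686 (Mdm4 and other p53 targets). Without native replicates 4 and 25 the values were -0.54 (called), 0.31, -0.46 (called), -0.40 and 0.41 for the same first 5 pairs and -0.10 for Mdm4 and other p53 targets. Quantile normalization gave -0.30, 0.0757, -0.19, -0.64 (called) and 0.13 for the same first 5 pairs, and 0.36 for Mdm2 and Ccng1. Centring on the set gave 0.54 (Mdm2 and Mdm4) and 0.37 (Mdm4 and other p53 targets), both called. With the macrophage mean held Mdm2 and Mdm4 had -0.000715 and Mdm4 and Ccng1 -0.0199, and with the small nucleolar RNA mean held Mdm4 and Ccng1 had 0.52, called. Against Cdkn2a below the gap, Mdm2 had 0.0176 in CTX 4h without the 2 farthest and 0.0176 at the next widest usable gap. In native it had -0.34 and -0.12. Above it, without the 2 farthest, Mdm2 had 0.24 in CTX 4h and -0.60 in native, and Ccng1 -0.71 in native.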

Other observations

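Inside the array sets, small nucleolar RNA genes varied with Mdm2 in both groups. They varied with Mdm4 in native lymphomas alone and inversely with Ppm1d in CTX 4h lymphomas alone. With values centred on the set, their mean had r = 0.52 with Mdm2 in CTX 4h and 0.61 in native lymphomas (permutation p adjusted over 16 relations = 0.00608 and 0.00144). With Mdm4 the values were 0.12 and 0.63 (permutation, adjusted p = 0.636 and 0.000853), and with Ppm1d -0.54 and 0.09 (permutation, adjusted p = 0.00608 and 0.715). Ccng1 had 0.19 and 0.17 and did not pass. Of the 54 genes, 31 were called higher in CTX 4h by limma with RNA input in the model, against 1.41% of all genes. No count with the array set in the model is given here.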
